A study of Mus musculus with 10 samples.

Results

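The 10 genes described here encode proteins that join, divide or remove mitochondria: Mfn1, Mfn2 and Opa1 (fusion), Dnm1l, Fis1 and Mff (fission), and Pink1, Bnip3, Bnip3l and Fundc1 (mitophagy). They were taken by name from the 18055 genes listed in RNA-seq libraries of primary hepatocytes of C57BL/6 mice, and all 10 were among the 14097 genes with enough reads to be tested. The libraries formed 5 groups of 2, which differed in free fatty acid (FFA) and in neurotropin (NTP), a drug given 1 h before the fatty acid at 0.4 NU/mL (a dose that the labels leave out). Vehicle cells received neither agent, PA cells received 200 µM palmitate (a saturated fatty acid) for 24 h, LA cells received 12 µM linoleate (a polyunsaturated fatty acid) for 24 h, and PA+NTP and LA+NTP cells received NTP followed by the same fatty acid. All cells were isolated by collagenase perfusion from wild-type mice, plated on collagen with serum and, per the study's methods, moved to medium without serum before treatment, and no library of cells given NTP without a fatty acid was analysed here. The labels do not say whether the 2 libraries of a group came from separate mice or cultures, so the p-values measure the spread between these libraries, which may be technical.

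Mitochondria form a network that is remodelled by membrane fusion and division. Mitofusins join outer membranes and Opa1 joins inner membranes, whereas the dynamin-related GTPase encoded by Dnm1l is recruited to the outer membrane by receptors such as Mff and constricts the organelle. Damaged or surplus mitochondria are delivered to autophagosomes either through the kinase Pink1, which marks depolarised mitochondria together with the ubiquitin ligase parkin, or through outer membrane receptors such as Bnip3, Bnip3l and Fundc1 that bind LC3-family proteins directly. In liver these pathways are studied because hepatocytes are rich in mitochondria and oxidise fatty acids in them.

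The libraries held between 13142588 and 60046937 expected counts (reads assigned to genes by a probability model), a 4.57-fold range in depth, and each of the 10 genes had between 307 and 8533 counts in every library. Of the hepatocyte markers, Alb was at 1928.73 to 2818.48 FPKM (fragments per kilobase of transcript, scaled to library size), Apoa1 at 180.63 to 957.75 and Apob at 295.67 to 338.43. Hnf4a was at 37.16 to 71.12, Ttr at 22.97 to 79.31, Cyp2e1 at 15.23 to 20.74, Tat at 3.64 to 8.51 and Cps1 at 1.52 to 4.61. The summed FPKM of these 8 markers, most of it Alb, ranged from 2515.6 to 4226.1 and was lowest in the PA libraries. The summed level of 6 macrophage markers ranged from 123.12 to 294.15, lowest in LA and highest in PA+NTP. Cd68 (121.56 to 287.31 FPKM) made up most of it. Marco was at 0.42 to 4.59, Adgre1 at 0.34 to 1.12 and Csf1r at 0.24 to 0.96, and Clec4f and Vsig4 stayed at or below 0.3. The summed level of 5 cholangiocyte markers was 406.54 to 703.79. Most of it was Spp1 (398.44 to 691.4), Sox9 was at 7.23 to 13.53, and Krt19, Krt7 and Epcam stayed at or below 0.92. The summed levels of 6 endothelial and 6 stellate cell markers were 28.3 to 41.4 and 20.9 to 26.8, those of 5 lymphocyte markers at most 0.7, and 4 neutrophil markers were listed in no library. The part of these markers in the results was not tested, and in these bulk samples fewer cells of a type and less RNA per cell cannot be told apart. A property that bears on every comparison is base composition. The rank correlation, across 14016 genes, of a gene's deviation from its own mean with the GC content of its transcripts was -0.471 and -0.482 under PA and -0.571 and -0.565 under LA, but between 0.345 and 0.573 in the other 6 libraries. The FFA-only libraries thus differed from all others in how GC-poor and GC-rich transcripts were represented, and for the members each comparison between groups is given both as counted and with this trend removed.

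On GRCm38.p6, Mfn1 lies on chromosome 3 (32529465 to 32579239, plus strand) and Mfn2 on chromosome 4 (147873599 to 147904704, minus strand). Opa1 lies on chromosome 16 (29579334 to 29654884, plus strand), and Dnm1l on the same chromosome (16312230 to 16358959, minus strand). Fis1 is on chromosome 5 (136953275 to 136966234, plus strand) and Mff on chromosome 1 (82724890 to 82752394, plus strand). Among the mitophagy genes, Pink1 is on chromosome 4 (138313409 to 138326307, minus strand), Bnip3 on chromosome 7 (138890836 to 138909519, minus strand), Bnip3l on chromosome 14 (66985239 to 67008877, minus strand) and Fundc1 on chromosome X (17556564 to 17572325, minus strand). Transcript GC content split the 10 genes into a GC-poor and a GC-rich set. Fundc1 (38.8%), Dnm1l (41.5%), Bnip3 (41.6%), Bnip3l (42.0%), Opa1 (44.7%), Mfn1 (45.9%) and Mff (46.8%) were below the median of 50.1% of the tested genes, and Mfn2 (53.3%), Fis1 (55.5%) and Pink1 (59.0%) were above it. Counts of Bnip3 were the least certain, since 74.72% of the 31-base words of its transcript also occur in transcripts of other genes, among them an antisense gene that overlaps it (Gm45507). The share was 28.49% for Bnip3l (mostly its pseudogene Bnip3l-ps), 11.81% for Dnm1l, 8.91% for Mff, 3.41% for Pink1, 0.95% for Mfn1 and 0 for the other 4 genes. Overlaps with a gene on the other strand were also annotated for Dnm1l (Gm49521) and Mff (C430014B12Rik), and whether the counting used strand is not given in the sources used here.

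RefSeq promoter entries of GRCm38.p6, which run from 250 bases before to 50 bases after a transcription start, were found for 9 of the 10 genes, all but Bnip3l. Those of 3 genes are printed here, because the mitofusin promoters belong to the pair of members that moved in opposite directions as counted and because Bnip3 is a textbook target of hypoxia-inducible factors, whose binding motif contains the letters ACGTG. Capitals mark ACGTG on either strand, or the longer palindrome CACGTG (the E-box, which contains ACGTG on both strands) where it occurs.
Mfn1, chr3:32529232-32529531, plus strand: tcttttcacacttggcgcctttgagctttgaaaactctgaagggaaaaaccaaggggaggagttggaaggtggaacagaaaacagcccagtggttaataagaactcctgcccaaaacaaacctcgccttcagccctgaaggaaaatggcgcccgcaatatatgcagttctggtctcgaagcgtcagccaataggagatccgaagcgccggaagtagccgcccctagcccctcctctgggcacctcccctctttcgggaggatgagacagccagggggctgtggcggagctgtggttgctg
Mfn2, chr4:147904649-147904948, minus strand: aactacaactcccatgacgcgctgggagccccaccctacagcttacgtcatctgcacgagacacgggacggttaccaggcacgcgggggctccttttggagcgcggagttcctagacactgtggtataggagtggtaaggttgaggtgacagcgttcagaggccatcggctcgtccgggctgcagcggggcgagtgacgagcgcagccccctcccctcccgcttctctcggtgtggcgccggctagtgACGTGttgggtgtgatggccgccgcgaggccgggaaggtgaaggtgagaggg
Bnip3, chr7:138909457-138909756, minus strand: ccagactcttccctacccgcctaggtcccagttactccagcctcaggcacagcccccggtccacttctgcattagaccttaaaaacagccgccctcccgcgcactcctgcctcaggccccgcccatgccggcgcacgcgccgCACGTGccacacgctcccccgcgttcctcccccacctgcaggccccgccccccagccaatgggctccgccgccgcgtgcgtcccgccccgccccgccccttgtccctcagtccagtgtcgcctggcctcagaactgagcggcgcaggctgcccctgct
RefSeq has 3 entries for Mfn2, of which the printed one and the one at 147904612 to 147904911 hold ACGTG and the one at 147904860 to 147905159 does not. ACGTG occurred in at least 1 entry of 2 of these 9 genes, Mfn2 and Bnip3, and in 19.6% of 32817 RefSeq promoters of the same length. CACGTG occurred in Bnip3 alone among them and in 7.1% of all promoters. These are matches of letters and not binding sites.

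In terms of FPKM, which allows levels to be compared between genes, Fis1 was the most abundant of the 10 in every group (mean 61.6 over the 10 libraries), followed by Bnip3l (42.9), Dnm1l (39.9), Mff (37.5), Pink1 (30.6), Mfn2 (29.1), Bnip3 (28.1), Mfn1 (22.9), Opa1 (21) and Fundc1 (10.5). The FPKM ranges of neighbours in this order overlapped, except that Fis1 (lowest library 52.35) stayed above Bnip3l (highest library 49.91) and Fundc1 (highest library 12.94) stayed below Opa1 (lowest library 18.5). Fundc1 exceeded 57.9% of the tested genes in mean FPKM, and the other 9 exceeded between 74.3% and 91.1% of them.

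**Figure D1:**
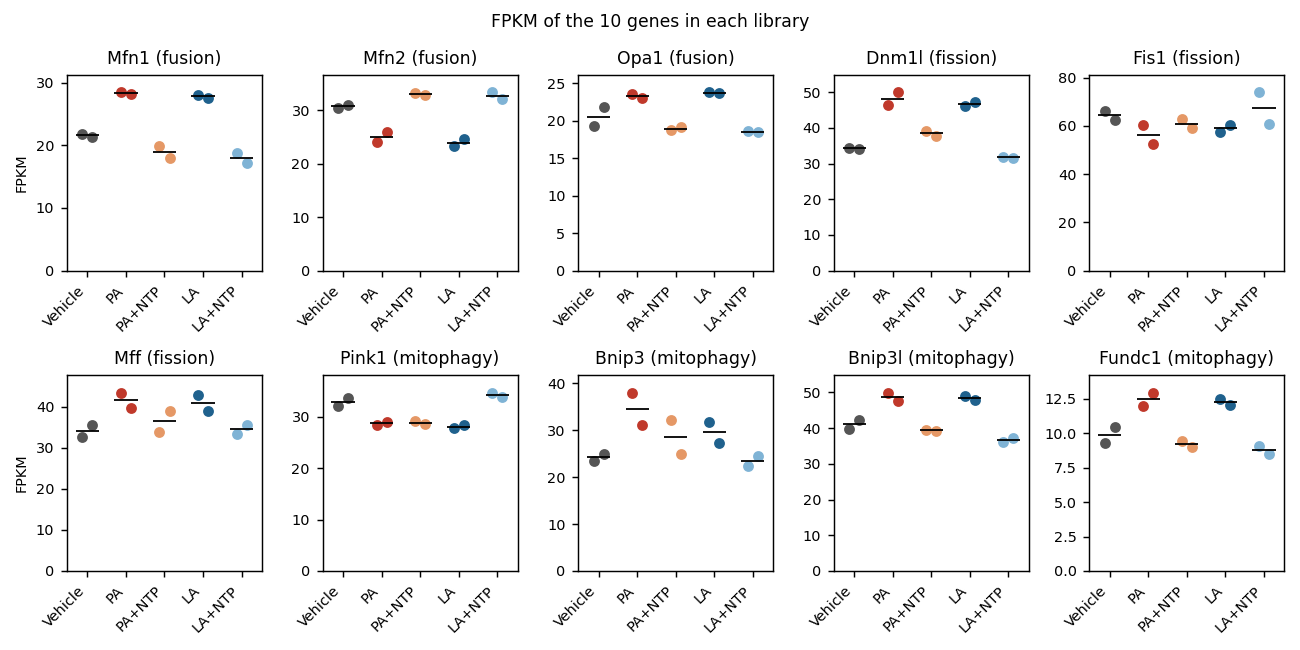
FPKM (y axis, from 0) of each of the 10 genes in the 2 libraries of each group (x axis); points are libraries and the black line is the mean of the 2. Mfn1, Opa1, Dnm1l, Bnip3l and Fundc1 are higher in the PA and LA libraries than in all 6 others, Mfn2 is lower there, and Fis1 shows overlapping groups.

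Mfn1, the outer membrane fusion GTPase, had the largest NTP differences of the 10 genes as counted (with the GC trend removed, that of Pink1 under PA was larger, at -0.48 against -0.45). Its FPKM was 21.84 and 21.4 in Vehicle, 28.45 and 28.18 in PA, 19.9 and 17.92 in PA+NTP, 28.04 and 27.61 in LA, and 18.78 and 17.22 in LA+NTP. Both fatty acid groups were above all Vehicle libraries, and all 4 NTP libraries were below them. By edgeR's quasi-likelihood test over all 14097 genes, Mfn1 rose with PA (log2 fold change 0.42 ± 0.06 SE, adjusted p = 0.00012) and with LA (0.41 ± 0.06, adjusted p = 0.000173). It fell with NTP in PA-treated cells (-0.64 ± 0.06, adjusted p = 3.98e-06), to 0.642 of its level, and in LA-treated cells (-0.67 ± 0.06). Once the GC trend was removed, the differences were 0.25 (adjusted p = 0.0124) and 0.22 (adjusted p = 0.038) with the fatty acids and -0.45 (adjusted p = 0.000295) and -0.43 (adjusted p = 0.000424) with NTP. In that fit the NTP calls passed without any 1 library (log2 from -0.53 to -0.36), whereas the PA call was lost without Vehicle replicate 2 (0.23, adjusted p = 0.1) or PA replicate 1 (0.24, adjusted p = 0.0558). The LA call was lost without Vehicle replicate 1 (0.24, adjusted p = 0.112), Vehicle replicate 2 (0.20, adjusted p = 0.223), LA replicate 1 (0.21, adjusted p = 0.156) or LA replicate 2 (0.23, adjusted p = 0.108).

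Mfn2, the other mitofusin, which also tethers mitochondria to the endoplasmic reticulum, moved the other way. Its FPKM was 30.31 and 31.05 in Vehicle, 24.0 and 25.91 in PA, 33.12 and 32.85 in PA+NTP, 23.23 and 24.6 in LA, and 33.32 and 32.12 in LA+NTP. The 4 FFA-only libraries were thus the lowest of the 10. Mfn2 fell with PA (log2 -0.26 ± 0.06, adjusted p = 0.00258) and with LA (-0.31 ± 0.06, adjusted p = 0.000752) and rose with NTP in PA-treated (0.34 ± 0.06, adjusted p = 0.000338) and LA-treated cells (0.41 ± 0.06). After removal of the GC trend the fatty acid differences no longer passed (-0.11, adjusted p = 0.169, and -0.16, adjusted p = 0.0725), and the NTP differences were 0.18 (adjusted p = 0.0306) and 0.21 (adjusted p = 0.0151). In that fit the PA+NTP call was lost without PA replicate 1 (0.14, adjusted p = 0.169), PA replicate 2 (0.22, adjusted p = 0.056), PA+NTP replicate 1 (0.19, adjusted p = 0.0518) or PA+NTP replicate 2 (0.17, adjusted p = 0.0823). The LA+NTP call was lost without LA replicate 1 (0.17, adjusted p = 0.124), LA+NTP replicate 1 (0.18, adjusted p = 0.106) or LA+NTP replicate 2 (0.23, adjusted p = 0.0622).

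Opa1, the inner membrane fusion GTPase that also shapes cristae, followed Mfn1 with a smaller amplitude. Its FPKM was 19.25 and 21.81 in Vehicle, 23.56 and 23.11 in PA, 18.71 and 19.21 in PA+NTP, 23.8 and 23.66 in LA, and 18.58 and 18.5 in LA+NTP. It rose with PA (log2 0.22 ± 0.06, adjusted p = 0.0132) and LA (0.25 ± 0.06, adjusted p = 0.00558) and fell with NTP in PA-treated (-0.36 ± 0.06, adjusted p = 0.000415) and LA-treated cells (-0.40 ± 0.06). None of the 4 differences passed with the GC trend removed (between -0.11 and 0.00, the nearest to the threshold at adjusted p = 0.213). Without Vehicle replicate 1, the lower of the Vehicle libraries, the fatty acid differences were 0.13 (adjusted p = 0.179) and 0.17 (adjusted p = 0.0971), and without PA replicate 1 the PA difference was 0.20 (adjusted p = 0.0606).

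Dnm1l, which encodes the fission GTPase Drp1, had the largest LA difference of the 10 genes as counted and, after Bnip3, the largest PA difference as counted. Its FPKM was 34.49 and 34.21 in Vehicle, 46.3 and 49.94 in PA, 39.03 and 37.82 in PA+NTP, 46.08 and 47.34 in LA, and 31.73 and 31.69 in LA+NTP. All FFA-only libraries were above all others, and the PA+NTP libraries lay between Vehicle and PA. Dnm1l rose 1.43-fold with PA (log2 0.51 ± 0.06, adjusted p = 8.9e-06) and 1.4-fold with LA (0.48 ± 0.06, adjusted p = 1.97e-05), and fell with NTP in PA-treated (-0.37 ± 0.06) and LA-treated cells (-0.59 ± 0.06). After removal of the GC trend no difference passed (0.16, 0.11, 0.00 and -0.12 in the same order), the PA difference lying close to the threshold (adjusted p = 0.0508). That difference passed with a wider smoothing span (0.16, adjusted p = 0.0444) and without PA replicate 1 (0.21, adjusted p = 0.0408), PA+NTP replicate 1 (0.16, adjusted p = 0.0364) or PA+NTP replicate 2 (0.16, adjusted p = 0.0351).

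Fis1, an outer membrane anchor of fission factors, was the gene with no passing difference in any of these 4 comparisons. Its FPKM was 66.11 and 62.45 in Vehicle, 60.27 and 52.35 in PA, 62.7 and 59.17 in PA+NTP, 57.58 and 60.27 in LA, and 73.85 and 60.78 in LA+NTP. The log2 differences were -0.17 ± 0.10 (adjusted p = 0.173) for PA, -0.07 ± 0.10 for LA, and 0.07 and 0.14 for NTP under PA and LA. Without LA+NTP replicate 2 the last of these was 0.27 (adjusted p = 0.041), and with the GC trend removed it was -0.21 (adjusted p = 0.122), or -0.35 (adjusted p = 0.0284) when LA+NTP replicate 1 was also left out.

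Mff, the receptor that recruits Drp1, had wider replicate spread. Its FPKM was 32.51 and 35.45 in Vehicle, 43.38 and 39.74 in PA, 33.79 and 39.04 in PA+NTP, 42.75 and 38.98 in LA, and 33.44 and 35.63 in LA+NTP. Mff rose with PA (log2 0.32 ± 0.09, adjusted p = 0.0094) and LA (0.31 ± 0.09, adjusted p = 0.0108) and fell with NTP in PA-treated (-0.24) and LA-treated cells (-0.28). The calls did not outlast the loss of single libraries. Without Vehicle replicate 1 the fatty acid differences were 0.26 (adjusted p = 0.09) and 0.25 (adjusted p = 0.104). Without PA replicate 1 the PA difference was 0.25 (adjusted p = 0.0689) and the PA+NTP difference -0.18 (adjusted p = 0.179), and without PA+NTP replicate 1 the latter was -0.12 (adjusted p = 0.332). Without LA replicate 1 the LA difference was 0.25 (adjusted p = 0.0985) and the LA+NTP difference -0.22 (adjusted p = 0.114), and without LA+NTP replicate 1 the latter was -0.24 (adjusted p = 0.0917). The PA+NTP call was also lost in limma on log2(FPKM + 1) (-0.19, adjusted p = 0.0971), and none of the 4 passed with the GC trend removed (0.19, 0.16, -0.10 and -0.09).

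Pink1, the kinase that starts parkin-dependent mitophagy, was the member with passing differences of opposite sign as counted and with the GC trend removed. Its FPKM was 32.21 and 33.77 in Vehicle, 28.52 and 29.05 in PA, 29.23 and 28.57 in PA+NTP, 27.77 and 28.47 in LA, and 34.73 and 33.91 in LA+NTP. The PA and PA+NTP libraries overlapped, whereas both LA+NTP libraries were above both LA libraries. As counted, Pink1 was lower with PA (log2 -0.16 ± 0.06, adjusted p = 0.0396) and LA (-0.19 ± 0.06, adjusted p = 0.0223), had -0.05 ± 0.06 with NTP in PA-treated cells (adjusted p = 0.51) and was higher with NTP in LA-treated cells (0.25 ± 0.06, adjusted p = 0.00274). Once the GC trend was removed, it was higher with PA (0.24, adjusted p = 0.0098) and LA (0.25, adjusted p = 0.0107) and lower with NTP under PA (-0.48, adjusted p = 9.33e-05) and under LA (-0.32, adjusted p = 0.0015). Its transcript is the most GC-rich of the 10, above 93.2% of the tested genes. As counted, the PA call was lost without Vehicle replicate 1 (-0.19, adjusted p = 0.0679), Vehicle replicate 2 (-0.13, adjusted p = 0.225), PA replicate 1 (-0.16, adjusted p = 0.115), PA replicate 2 (-0.17, adjusted p = 0.105), LA+NTP replicate 1 (-0.16, adjusted p = 0.0653) or LA+NTP replicate 2 (-0.16, adjusted p = 0.0633), and in DESeq2 (adjusted p = 0.0742). The LA call was lost without Vehicle replicate 2 (-0.15, adjusted p = 0.163), LA replicate 1 (-0.16, adjusted p = 0.117) or LA replicate 2 (-0.20, adjusted p = 0.0584). In the fit without the GC trend, leaving out Vehicle replicate 1 gave 0.20 (adjusted p = 0.0974) for PA and 0.21 (adjusted p = 0.111) for LA, and leaving out LA replicate 2 gave 0.23 (adjusted p = 0.0725) for LA. The NTP calls of Pink1 in that fit passed without any 1 library (log2 from -0.50 to -0.29).

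Bnip3, a mitophagy receptor induced by low oxygen, had the largest standard errors. Its FPKM was 23.41 and 25 in Vehicle, 38.0 and 31.04 in PA, 32.16 and 24.92 in PA+NTP, 31.82 and 27.21 in LA, and 22.38 and 24.58 in LA+NTP. PA libraries were above Vehicle, and PA and PA+NTP libraries overlapped. Bnip3 rose with PA (log2 0.53 ± 0.12, adjusted p = 0.00264) and LA (0.33 ± 0.12, adjusted p = 0.0393) and fell with NTP under PA (-0.32 ± 0.12, adjusted p = 0.0408) and LA (-0.37 ± 0.12). The PA call passed without any 1 library (0.39 to 0.69). The LA call was lost without Vehicle replicate 1 (0.29, adjusted p = 0.185), Vehicle replicate 2 (0.38, adjusted p = 0.0924) or LA replicate 1 (0.22, adjusted p = 0.296). The PA+NTP call was lost without Vehicle replicate 1 (-0.32, adjusted p = 0.0551), Vehicle replicate 2 (-0.32, adjusted p = 0.0555), PA replicate 1 (-0.18, adjusted p = 0.305) or PA+NTP replicate 2 (-0.17, adjusted p = 0.283), and the LA+NTP call without LA replicate 1 (-0.25, adjusted p = 0.181) or LA+NTP replicate 1 (-0.30, adjusted p = 0.102). These 3 calls were lost in limma on log2(FPKM + 1) as well (adjusted p = 0.129, 0.126 and 0.0731). In the fit without the GC trend the 4 differences were 0.18, -0.04, 0.05 and 0.09, and none passed.

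Bnip3l (also called Nix), the relative of Bnip3 that clears mitochondria from maturing red cells, had narrow replicates. Its FPKM was 39.8 and 42.2 in Vehicle, 49.91 and 47.69 in PA, 39.51 and 39.21 in PA+NTP, 49.02 and 47.94 in LA, and 36.2 and 37.27 in LA+NTP. The 4 FFA-only libraries were the highest. Bnip3l rose with PA (log2 0.28 ± 0.06, adjusted p = 0.00121) and LA (0.29 ± 0.06, adjusted p = 0.00118) and fell with NTP under PA (-0.37 ± 0.06) and LA (-0.44 ± 0.06), and each call passed without any 1 library. In the fit without the GC trend all 4 differences lay between -0.07 and 0.00.

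Fundc1, a mitophagy receptor of the outer membrane, was the least abundant of the 10 genes and had the most GC-poor transcript. Its FPKM was 9.3 and 10.43 in Vehicle, 11.98 and 12.94 in PA, 9.46 and 8.99 in PA+NTP, 12.5 and 12.04 in LA, and 9.06 and 8.51 in LA+NTP. The 4 FFA-only libraries were again above all others. Fundc1 rose with PA (log2 0.37 ± 0.09, adjusted p = 0.0038) and LA (0.36 ± 0.09, adjusted p = 0.00533) and fell with NTP under PA (-0.50) and LA (-0.53). Without Vehicle replicate 1 the fatty acid differences were 0.30 (adjusted p = 0.0511) and 0.28 (adjusted p = 0.0681), and without PA replicate 2 the PA difference was 0.31 (adjusted p = 0.0564). After removal of the GC trend the 4 differences lay between -0.11 and 0.05, and none passed.

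Counted over the 10 genes, 9 passed the test (adjusted p under 0.05 at any fold) with PA, 7 higher and 2 lower, where 45.5% of all tested genes passed. With LA 9 passed, again 7 higher and 2 lower, against 41.3% of all genes. With NTP, 8 passed in PA-treated cells (1 higher, 7 lower, against 44.7%) and 9 in LA-treated cells (2 higher, 7 lower, against 51.5%). The median log2 difference of the 10 genes as counted was 0.30 with PA, 0.30 with LA, -0.34 with NTP under PA and -0.38 with NTP under LA, whereas the median of all tested genes lay between -0.01 and 0.01. With the GC trend removed, the medians of the 10 genes were 0.12, 0.06, -0.07 and -0.09 in the same order. That of all tested genes was then 0.0 in each. PA against Vehicle and PA+NTP against PA use the same PA libraries, and the LA comparisons the same LA libraries, so that the opposite signs within a pair are not independent. Few of the differences were large. At a fold of at least 1.5, 0 of the 10 genes passed with PA (14.9% of all genes did) and 0 with LA (10.6%), only Mfn1 passed with NTP in PA-treated cells (13.9%), and Mfn1 and Dnm1l passed with NTP in LA-treated cells (19.3%). Dnm1l was close to this fold and fell below it without Vehicle replicate 1, Vehicle replicate 2, LA replicate 2 or LA+NTP replicate 1, each of which left 1 gene. Bnip3 reached the fold with PA without PA replicate 2, which left 1 gene. At any fold, fewer of the 10 genes passed with PA and with LA when Vehicle replicate 1 was left out. That fit has 1 Vehicle library, and its share over all genes is not given here.

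**Figure D2:**
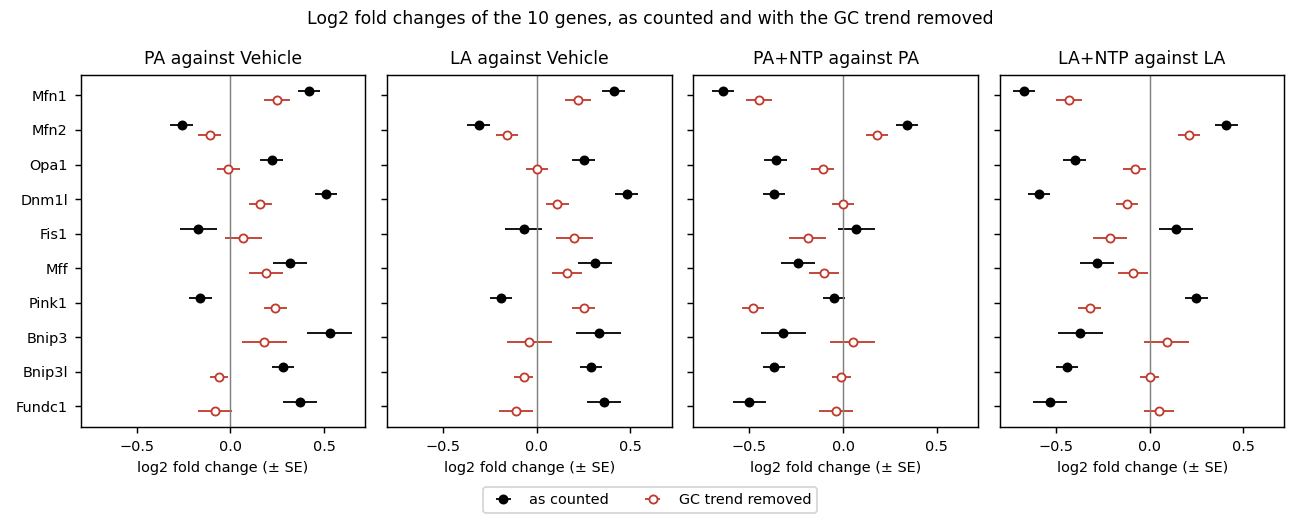
Log2 fold change (x axis, ± SE of the fit) of each of the 10 genes in 4 comparisons, as counted (filled) and with the GC trend removed (open). Most open points lie nearer 0 than the filled ones, Mfn1, Mfn2 and Mff keep their side in all 4 panels, Fis1 changes side in all 4, Pink1 in PA, LA and LA+NTP, and several others change side close to 0.

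With the GC trend removed, 2 genes passed with PA (Mfn1 and Pink1, both higher, against 31% of all genes) and the same 2 with LA (17.0% of all genes). With NTP, 3 passed in PA-treated cells (26.7% of all genes) and 3 in LA-treated cells (26.6%), and in both they were Mfn2, which was higher, and Mfn1 and Pink1, which were lower. The PA count was 1 without Vehicle replicate 1 or Vehicle replicate 2, and the LA count was 0 without Vehicle replicate 1 or LA replicate 2 and 1 without Vehicle replicate 2 or LA replicate 1. Every member with a transcript GC content up to 46.8% was higher with both fatty acids as counted, and of the 3 members from 53.3% upward Mfn2 and Pink1 were lower, whereas Fis1 had -0.17 (adjusted p = 0.173) and -0.07 (adjusted p = 0.605). Over the 10 genes, Pearson's r between GC content and log2 difference was -0.89 with PA, -0.87 with LA, 0.75 with NTP under PA and 0.87 with NTP under LA, and 0.20, 0.47, -0.43 and -0.34 with the trend removed. These are descriptions over 10 genes that share the same libraries. Whether the trend came from the cells or from the making of the libraries cannot be told apart here, since it separated whole groups, and removing it also removes any real change that goes with GC content.

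**Figure D3:**
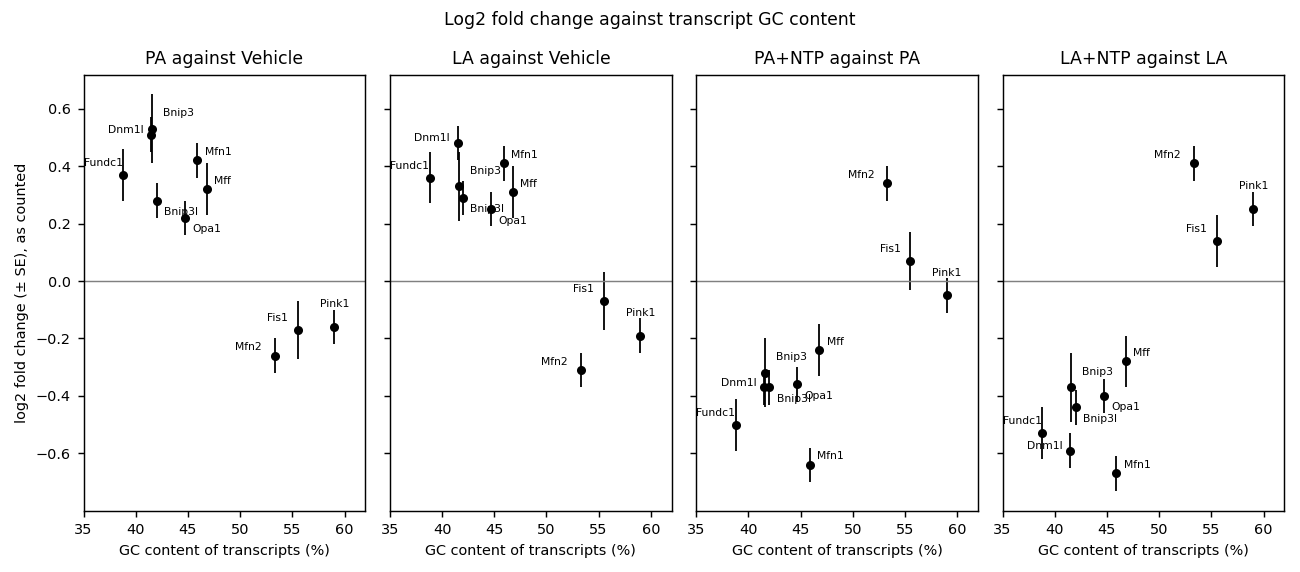
Log2 fold change as counted (y axis, ± SE of the fit) against the GC content of each gene's transcripts (x axis, percent) in 4 comparisons. The 7 genes up to 46.8% GC lie on one side of 0 in every panel and Mfn2, at 53.3%, lies on the other.

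Pooling both fatty acids, the 4 NTP libraries did not overlap the 4 FFA-only libraries in FPKM for 6 of the 10 genes (Mfn1, Mfn2, Opa1, Dnm1l, Bnip3l and Fundc1), as was the case for 43.7% of all tested genes. By an exact two-sided permutation test on log2 counts scaled to library size, which with 4 against 4 libraries cannot give a p below 0.0286, these 6 and Mff reached p = 0.0286, Bnip3 p = 0.0571, Pink1 p = 0.429 and Fis1 p = 0.486. On that log2 scale, the 4 FFA-only and 4 NTP libraries did not overlap for 44.3% of all tested genes. Such genes have the smallest p of this permutation test. In an exact permutation test within each fatty acid, the smallest possible p was 0.0556. In this permutation test Mfn1, Mfn2, Opa1, Dnm1l, Mff, Bnip3, Bnip3l and Fundc1 had p = 0.0556. The same exact permutation test gave p = 0.333 for Pink1 and p = 0.389 for Fis1. The share of all genes at its smallest p is not given here. An exact permutation test of 2 against 2 libraries cannot go below p = 0.333. In the edgeR fit the mean of the NTP effects passed for 8 of the 10 genes (1 higher, 7 lower, against 59.9% of all genes). It was -0.66 for Mfn1 (adjusted p = 2.89e-08), -0.48 for Dnm1l (adjusted p = 1.46e-07) and 0.38 for Mfn2 (adjusted p = 2.42e-06). With the GC trend removed 4 passed (41.4% of all genes), Mfn1 (-0.44), Pink1 (-0.40), Fis1 (-0.20) and Mfn2 (0.19). The Fis1 value was lost without PA replicate 1 (-0.15, adjusted p = 0.11), LA replicate 2 (-0.18, adjusted p = 0.0863) or LA+NTP replicate 2 (-0.13, adjusted p = 0.14), and as counted Fis1 passed without LA+NTP replicate 2 (0.17, adjusted p = 0.0429).

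The NTP effects under the 2 fatty acids were not shown to differ. For the difference between them, 0 of the 10 genes and 0.0% of all genes passed in edgeR, and 0 of the 10 passed in DESeq2. At an unadjusted p under 0.05 in edgeR it was 2 of the 10, and the share of all genes at that threshold is not given here. The 2 were Pink1, whose NTP effect was lower by 0.30 ± 0.08 (log2) under PA than under LA (unadjusted p = 0.00309, adjusted p = 0.629), and Dnm1l, whose fall was smaller under PA by 0.21 ± 0.08 (unadjusted p = 0.0179, adjusted p = 0.639). Once the GC trend was removed, these differences were -0.16 ± 0.08 for Pink1 (unadjusted p = 0.0747) and 0.12 ± 0.08 for Dnm1l (unadjusted p = 0.153), and 0 of the 10 genes passed. PA and LA were given at different doses, and between their libraries 0 of the 10 genes passed, against 11.1% of all genes. In DESeq2 it was 0, against 10.7% of all genes. At an unadjusted p under 0.05 in edgeR it was 0 of the 10, and the share of all genes at that threshold is not given here. The log2 differences of PA minus LA ran from -0.10 ± 0.10 for Fis1 to 0.20 ± 0.12 for Bnip3, and 0 passed with the GC trend removed.

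Against Vehicle, 2 of the 10 genes passed with PA+NTP, where 10.1% of all genes did. The log2 difference was -0.22 ± 0.06 for Mfn1 (adjusted p = 0.0459) and -0.22 ± 0.06 for Pink1 (adjusted p = 0.033). Once the GC trend was removed, Pink1 passed (-0.25, adjusted p = 0.0191) and Mfn1 did not (-0.20, adjusted p = 0.0711). In that fit the Pink1 call was lost without Vehicle replicate 1 (-0.29), Vehicle replicate 2 (-0.2) or PA+NTP replicate 1 (-0.22). Without PA+NTP replicate 1, Mfn1 passed there (-0.28). As counted, both values lay close to the threshold, and between 0 and 1 gene passed when any 1 of the 10 libraries was left out. Mfn1 passed in this comparison without PA+NTP replicate 1 alone, and its adjusted p was otherwise between 0.051 (without LA+NTP replicate 2) and 0.235 (without Vehicle replicate 1). Pink1 was lost without either Vehicle, PA+NTP or LA+NTP library, at an adjusted p from 0.0526 (without LA+NTP replicate 2) to 0.236 (without Vehicle replicate 2). With LA+NTP against Vehicle 0 of the 10 genes passed in edgeR, where 0.284% of all genes did. At an unadjusted p under 0.05 it was 3 of the 10, and the share of all genes at that threshold is not given here. In DESeq2 1 of the 10 passed, where 2.0% of all genes did. That gene was Mfn1, at -0.26 ± 0.06 in edgeR (adjusted p = 0.089), and at -0.27 without PA+NTP replicate 1 (adjusted p = 0.0359) or PA+NTP replicate 2 (adjusted p = 0.0369). After removal of the GC trend 0 passed (0.1% of all genes), and Mfn1 had -0.21 (adjusted p = 0.344).

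The balance between members can be read within a library, where depth cancels. The ratio of Mfn1 to Mfn2 in FPKM was 0.721 and 0.689 in Vehicle, 1.19 and 1.09 in PA, 0.601 and 0.546 in PA+NTP, 1.21 and 1.12 in LA, and 0.564 and 0.536 in LA+NTP. Mfn1 thus exceeded Mfn2 in the FFA-only libraries and in no other. The ratio of Dnm1l to Mfn2, a fission to a fusion GTPase, was 1.14 and 1.1 in Vehicle, 1.93 and 1.93 in PA, 1.18 and 1.15 in PA+NTP, 1.98 and 1.92 in LA, and 0.952 and 0.987 in LA+NTP. Both pairs set a GC-poor against a GC-rich transcript, so that the GC trend enters these ratios. The ratio of Dnm1l to Mfn2 does not stand for fission against fusion as a whole. The other fusion genes moved with Dnm1l as counted. With PA the log2 differences were 0.51 for Dnm1l, 0.42 for Mfn1 and 0.22 for Opa1. With NTP under PA they were -0.37, -0.64 and -0.36. Ratios of Dnm1l to Mfn1 or Opa1 are not given here. The ratio of Bnip3 to Bnip3l, whose transcripts are alike in GC content (41.6% and 42.0%), was 0.588 and 0.592 in Vehicle and lay between 0.568 and 0.814 in the other 8 libraries, with PA (0.761 and 0.651) and PA+NTP (0.814 and 0.636) overlapping.

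**Figure D4:**
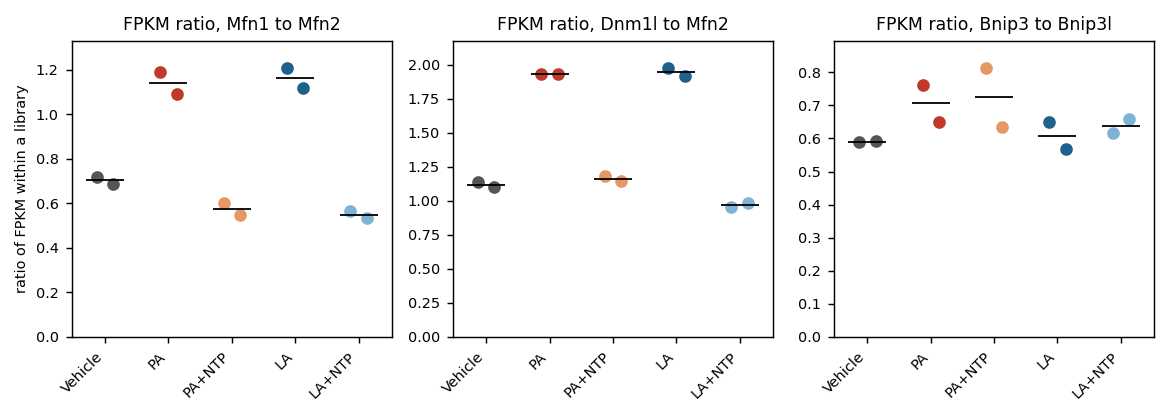
Ratio of FPKM within each library (y axis, from 0) for Mfn1 to Mfn2, Dnm1l to Mfn2, and Bnip3 to Bnip3l in each group (x axis); points are libraries and lines are means of 2. The first pair of ratios are highest in all 4 FFA-only libraries, and the third overlaps between PA and PA+NTP.

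Across the 10 libraries, which share their groups and the base composition trend, the log2 levels of Mfn1 ran with those of Bnip3l (Pearson's r = 0.97), Fundc1 (0.97) and Opa1 (0.95) and against those of Mfn2 (-0.97). Fis1 was the least tied to Mfn1 (-0.35), followed by Pink1 (-0.47). Such values were common: of 11115 genes whose mean FPKM reached 1, 1307 had r above 0.9 with Mfn1 and 1402 with Dnm1l. The genes most like Mfn1 were Rnft1 (0.995), Hnrnpa2b1 (0.994) and Zc3h11a (0.992), and those most like Dnm1l were Blmh (0.992), Ppp4r3a (0.991) and Syncrip (0.991).

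Among 19 tested genes of fusion, cristae structure and Opa1 processing other than the 10, 8 rose and 2 fell with PA (23.5% and 22.0% of all genes did), 4 rose and 3 fell with LA (20.8% and 20.5%), 2 rose and 9 fell with NTP under PA (21.7% and 23.0%), and 3 rose and 8 fell with NTP under LA (25.9% and 25.6%). With the GC trend removed the counts were 7 and 0 (16.1% and 14.9% of all genes), 3 and 1 (8.2% and 8.9%), 0 and 9 (12.9% and 13.8%), and 0 and 7 (13.3% and 13.3%). Yme1l1, the inner membrane protease that cleaves Opa1, had mean FPKM values of 38.1 ± 1.64 (SD, n = 2) in Vehicle, 60.4 ± 0.665 in PA, 38.0 ± 1.27 in PA+NTP, 56.8 ± 2.18 in LA and 32.7 ± 0.884 in LA+NTP. It rose with PA (log2 0.70) and LA (0.62) and fell with NTP under PA (-0.73) and LA (-0.84), and with the GC trend removed 3 of these 4 passed (0.22, 0.13, -0.24 and -0.23, the LA difference at adjusted p = 0.125). Miga1, an outer membrane fusion factor, showed the same order with 0.56, 0.37, -0.57 and -0.55, and 0.36, 0.15, -0.35 and -0.28 with the trend removed (the LA difference at adjusted p = 0.234). Slc25a46, an outer membrane protein linked to fusion, had 0.41, 0.45, -0.35 and -0.51, of which none passed with the trend removed.

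Of 15 tested fission genes beside the 10, 4 rose and 2 fell with PA, 4 rose and 6 fell with LA, 3 rose and 3 fell with NTP under PA, and 7 rose and 3 fell with NTP under LA, beside the shares of all genes given for the fusion list. In the fit without the GC trend the counts were 3 and 0, 2 and 1, 1 and 1, and 0 and 1, in the same order. Inf2, a formin that assembles actin at fission sites, fell with PA (log2 -0.58) and LA (-0.69) and rose with NTP (0.67 and 0.74), and with the GC trend removed had -0.13, -0.19, 0.19 and 0.11, of which the LA and PA+NTP values passed (adjusted p = 0.0393 and 0.0286). Spire1, an actin nucleator that works with it, rose with PA (0.52, and 0.44 with the trend removed) and had 0.13 with LA (adjusted p = 0.304). It fell with NTP under PA (-0.32, adjusted p = 0.0118) and LA (-0.37, adjusted p = 0.00375), and neither NTP difference passed with the trend removed (-0.23, adjusted p = 0.0739, and -0.24, adjusted p = 0.0583). Senp5, a protease that removes SUMO from Drp1, had 0.37, 0.25, -0.23 and -0.30, all past the test, and 0.15, 0.01, 0.01 and 0.01 with the trend removed, none of which passed.

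Of 24 tested mitophagy genes beside the 10, 8 rose and 8 fell with PA, 9 rose and 8 fell with LA, 6 rose and 11 fell with NTP under PA, and 8 rose and 10 fell with NTP under LA, beside the same shares of all genes. In the fit without the GC trend the counts were 3 and 5, 3 and 4, 5 and 7, and 4 and 5. Unlike most of the 10 genes, Ulk1 and Tomm7 passed in all 4 comparisons both as counted and with the GC trend removed. Ulk1, the kinase that starts autophagosome formation and phosphorylates Fundc1, fell with PA (log2 -0.96 ± 0.08, adjusted p = 9.71e-07) and LA (-0.69 ± 0.08) and rose with NTP under PA (0.82 ± 0.08) and LA (0.87 ± 0.08), and with the trend removed the values were -0.61, -0.30, 0.44 and 0.37. Tomm7, a subunit of the outer membrane import complex that stabilises Pink1 on damaged mitochondria, fell with PA (-0.47 ± 0.11) and LA (-0.59 ± 0.11) and rose with NTP (0.55 and 0.75). With the trend removed its values were larger, at -0.73, -0.87, 0.83 and 1.11, its transcript being GC-poor (44.0%). Tax1bp1, an autophagy receptor for ubiquitinated cargo, rose with PA and LA (0.43 and 0.46) and fell with NTP (-0.68 and -0.71), and the NTP differences alone passed with the trend removed (-0.33 and -0.27).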

How the data were processed

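RNA-seq of primary mouse hepatocytes was available as 1 table per library (5 groups of 2), and each library's group and replicate number follow its label (the NTP dose is that of the study's figure legend). The authors aligned reads with HISAT and Bowtie2 and quantified genes with RSEM on mm10, per the labels and methods; no source used here gives their versions. The deposited expected counts are RSEM estimates per gene without normalization between libraries. The deposited FPKM values were scaled by the authors for transcript length and library size. Genes that a library's table does not list were set to 0.

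The 10 members and all gene lists were chosen with earlier results of these data known. All 10 members were named. From each wider list the 3 genes with the largest mean absolute log2 difference over the 4 comparisons among genes past the test in at least 1 and with a mean FPKM of at least 1 were named, and, for the 2 members with the widest range of group means, the 3 genes most correlated with them over the 10 libraries. After rounding, expected counts were analysed in edgeR 4.0.16 (quasi-likelihood, TMM, genes kept by filterByExpr) with all 10 libraries and the 5 groups as 1 factor, and p-values were adjusted by Benjamini-Hochberg over 14097 genes; 3958 genes had too few reads. DESeq2 1.42.0 and limma 3.58.1 were alternatives. The GC trend was removed with an offset per library, a loess curve (span 0.4) of log2 deviations on transcript GC content (GENCODE M21), available for 14016 genes. Standard errors are those of the fits. Scripts were tested on simulated data. Same-numbered libraries of different groups deviated together with correlations of -0.07 to 0.13 over 10 group pairs, 2 of them above 0.1, so numbers were not taken as pairs. The names under which the libraries were deposited carry partly other numbers than the labels, and the block by file numbers used those. Replicates differed beyond sampling noise (chi-square per gene 3.81 to 16.4).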

Additional observations from a re-analysis of the deposited data

How the results depend on the processing

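After removal of the GC trend, the number of the 10 genes past the test was 2 with PA, 2 with LA, 3 with NTP under PA, 3 with NTP under LA, 1 for PA+NTP against Vehicle and 4 for the mean NTP effect, and with the trend removed and a replicate block it was 3, 2, 3 and 3 for the first 4 and 4 for the mean. No gene (0) then passed at a fold of at least 1.5. The log2 differences of Fis1 in the 4 comparisons, which passed in neither fit, changed sign (to 0.07, 0.20, -0.19 and -0.21). Among differences that passed in either fit, those that changed sign (0.0 after rounding in some) were, for Opa1 with PA, -0.01 (with the block also -0.01), for Dnm1l with NTP under PA 0.0 (0.0), for Fis1 in the mean NTP effect -0.2 (-0.2), for Pink1 0.24 (0.23) with PA, 0.25 (0.26) with LA, -0.32 (-0.32) with NTP under LA and -0.4 (-0.4) in the mean, for Bnip3 -0.04 (-0.05) with LA, 0.05 (0.05) and 0.09 (0.1) with NTP under PA and LA and 0.07 (0.07) in the mean, for Bnip3l -0.06 (-0.06) with PA, -0.07 (-0.07) with LA and 0.0 (0.0) with NTP under LA, and for Fundc1 -0.08 (-0.08) with PA, -0.11 (-0.11) with LA, 0.05 (0.05) with NTP under LA and 0.01 (0.01) in the mean. The cause was not tested. Counts at a fold of at least 1.5 were 1 with NTP under PA and 2 with NTP under LA. They were 0 and 1 with library size scaling, 0 and 1 in each of 3 limma fits on FPKM, and 0 and 0 (probability 0.95) or 0 and 1 (probability 0.8) by the NOISeq rule, and the second was 1 without a filter on low counts or with genes kept at a mean FPKM of 1 or more. The mean NTP effect had 1 such gene (0 in limma on log2(FPKM + 1)). At any fold they were 9, 9, 8 and 9, with 2 for PA+NTP against Vehicle and 8 for the mean. PA+NTP against Vehicle gave 0 genes with library size scaling, with only the compared groups or with a block by file numbers, and 1 in the 3 limma fits. LA+NTP against Vehicle gave 1 in DESeq2, without a filter, with only the compared groups, with the replicate block and with the block by file numbers. The replicate block alone left the other counts at 9, 9, 8 and 9. Same-numbered libraries correlated above 0.1 in 2 of 10 group pairs (at most 0.13). Such values cannot tell whether these libraries shared a mouse or culture. Leaving out each library gave 5 to 9 genes with PA, 5 to 9 with LA, 6 to 8 and 7 to 10 with NTP under PA and LA, 0 to 1 for PA+NTP and 0 to 1 for LA+NTP against Vehicle, and, at a fold of at least 1.5, 0 to 1 with PA and 1 to 2 with NTP under LA; a group left with 1 library borrowed its spread from the rest. In the fit without the GC trend, where leaving out libraries and the span of 0.8 were added after seeing the data, it gave 1 to 3 with PA, 0 to 2 with LA and 0 to 1 for PA+NTP against Vehicle. Shares of all genes in the fits with 1 library left out are not given here. Lower counts in those fits therefore cannot be read as a property of the 10 genes. Length correction, DESeq2 and a loess span of 0.8 kept the counts of the 4 comparisons within 1.5 times. Levels in CPM per kilobase moved by more than 1 SD of the 2 libraries in 14 of 50 gene and group pairs. With 2 libraries per group an SD rests on a single difference, and NTP without a fatty acid was not analysed here.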

Other observations

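A list of mitochondrial transport genes was measured beside the 10. It held genes that move mitochondria along microtubules and also Mtx1 and Mtx2. Of its 7 genes, 3 rose and 2 fell with PA, 4 rose and 3 fell with LA, 2 rose and 4 fell with NTP under PA, and 3 rose and 4 fell with NTP under LA. Of all tested genes, 23.5% rose and 22.0% fell with PA, 20.8% and 20.5% with LA, 21.7% and 23.0% with NTP under PA, and 25.9% and 25.6% with NTP under LA. With the GC trend removed the counts were 2 and 0, 1 and 0, 0 and 1, and 0 and 1 (of all tested genes 16.1% and 14.9%, 8.2% and 8.9%, 12.9% and 13.8%, and 13.3% and 13.3%). Kif5b, the kinesin heavy chain that carries mitochondria outward, passed in all 4 comparisons in both fits, with log2 differences of 0.67, 0.65, -0.66 and -0.80 as counted and 0.30, 0.26, -0.28 and -0.32 with the trend removed. Rhot1, the outer membrane GTPase that links mitochondria to motors, had 0.47, 0.35, -0.37 and -0.38 as counted, and 0.21 (adjusted p = 0.0316), 0.07, -0.08 and -0.02 with the trend removed. Mtx1, an outer membrane import factor, had -0.59, -0.67, 0.67 and 0.78 as counted, and none passed with the trend removed.

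Of 15 tested hypoxia-inducible genes, a group to which Bnip3 is often assigned, 8 rose and 1 fell with PA, 3 rose and 1 fell with LA, 2 rose and 2 fell with NTP under PA, and 1 rose and 4 fell with NTP under LA, beside the shares of all tested genes given above. With the GC trend removed the counts were 7 and 0, 4 and 0, 2 and 4, and 1 and 6, and the median log2 difference with PA was 0.37 (0.25 as counted). Ero1a, an oxidase of protein folding in the endoplasmic reticulum, had 0.62, 0.46, -0.47 and -0.64 as counted, and the PA (0.27) and LA+NTP (-0.18) differences passed with the trend removed. Slc2a1, the glucose transporter GLUT1, was higher with NTP under both fatty acids (0.67 and 0.57), also with the trend removed (0.48 and 0.32). As counted, Slc2a1 had 0.11 with PA (adjusted p = 0.187) and was lower with LA (-0.26, adjusted p = 0.00554). With the trend removed it was higher with PA (0.29, adjusted p = 0.00393) and had -0.07 with LA (adjusted p = 0.504). Pdk1, which restrains pyruvate oxidation, had 0.53 with PA and 0.49 with LA, and neither passed with the trend removed (0.38 and 0.32).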
